A study of Mus musculus with 6 samples.

Results

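Transcripts of the mitochondrial respiratory chain and ATP synthase were followed in testes with and without Prss54. They were taken by gene name, as every probe for a gene named Nduf (complex I), Sdha to Sdhd (complex II), Uqcr or Cyc1 (complex III), Cycs or Cyct (cytochrome c), Cox with a digit (complex IV and its assembly factors) or Atp5 (ATP synthase). That gave 156 of the 41174 gene probes on the array, for 104 of its 27376 gene names. The rule reads names only, although it was proposed with earlier results of these data known. A probe was tested where the scanner software marked it as well above background on 3 or more arrays, which held for 149 of the 156 probes and 103 of the 104 genes. Of these, 147 had that mark on all 6 arrays. The gene lost was Cox4i2, and the other 6 probes left out belonged to Cox16, Ndufab1, Ndufaf4, Ndufb2, Ndufs4 and Ndufs5, which each kept another probe.

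The respiratory chain sits in the inner mitochondrial membrane. Complexes I and II feed electrons from NADH and succinate to ubiquinone, complex III passes them on to cytochrome c, and complex IV hands them to oxygen. Complexes I, III and IV pump protons, and ATP synthase uses the gradient to make ATP. Male germ cells carry their own versions of some parts. Cyct is the testis form of cytochrome c, and Cox6b2, Cox7b2 and Cox8c are testis forms of small complex IV subunits that somatic cells make from Cox6b1, Cox7b and Cox8a. In sperm the mitochondria are wrapped around the midpiece of the tail.

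The samples were testes of adult male mice, 6-8 weeks old, all on a mixed 129Sv/C57BL/6 background: 3 wild type (WT) and 3 Prss54 knockout (Prss54KO), each on 1 single-colour Agilent array. The label of the knockout gives the gene and no details of the allele. The question of the comparison is which testis transcripts differ when Prss54, which encodes a protein of the trypsin family of serine proteases, is disrupted. The labels give no litter or cage, so p-values measure the spread between these 3 samples per genotype. RNA came from tissue, in which fewer cells of a type and less RNA per cell cannot be told apart.

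The Prss54 probe gave processed signals of 22677, 24152 and 26119.6 in WT and 7381, 9466 and 8416 in Prss54KO. All knockout samples lay below all WT samples, with a log2 difference of -1.56 (SE 0.10, limma adjusted p = 0.116). Of the 28913 probes tested, limma called 0 at an adjusted p under 0.05, Prss54 included, and 929 (3.21%) at an unadjusted p under 0.05. The share of gene spots with a mark for signal over background ran from 66.2% to 74.8% per array, with 0 saturated spots. WT replicates 1 and 2 shared a slide, WT replicate 3 shared the next with Prss54KO replicates 1 and 2, and Prss54KO replicate 3 was alone on its slide.

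Respiratory chain transcripts differed little between the genotypes. Differences are given as Prss54KO minus WT on the log2 scale, after each array was scaled to its 75th percentile. Of the 149 probes tested, 0 passed limma at an adjusted p under 0.05 (background 0.0%), and 0 had an unadjusted p under 0.05 in either direction, against 1.76% of all probes higher and 1.46% lower. The smallest adjusted p among them was 0.9998. The median difference was 0.015, against 0.0071 over all probes tested, and 98 of the 149 differences were above 0, against 53.4% of all probes. The median turned to -0.0038 when arrays were scaled to their medians and to -0.0022 without WT replicate 2.

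The lowest difference was -0.21 and the highest 0.20. These were the only 2 probes beyond 0.2 in either direction, where 10.4% of all probes lay, and 18 of the 149 were beyond 0.1, against 29.1%. In 6 of 149 probes the levels of the genotypes did not overlap, against 7.89% of all probes. Prss54KO was higher in 3 of them, against 4.32% of all, and lower in 3, against 3.56%. The 95% interval of the difference had a median half-width of 0.14 and lay within a 1.5-fold change in either direction for 147 of the 149 probes. The other 2 were probes for Cox7c and Cox8b.

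**Figure D1:**
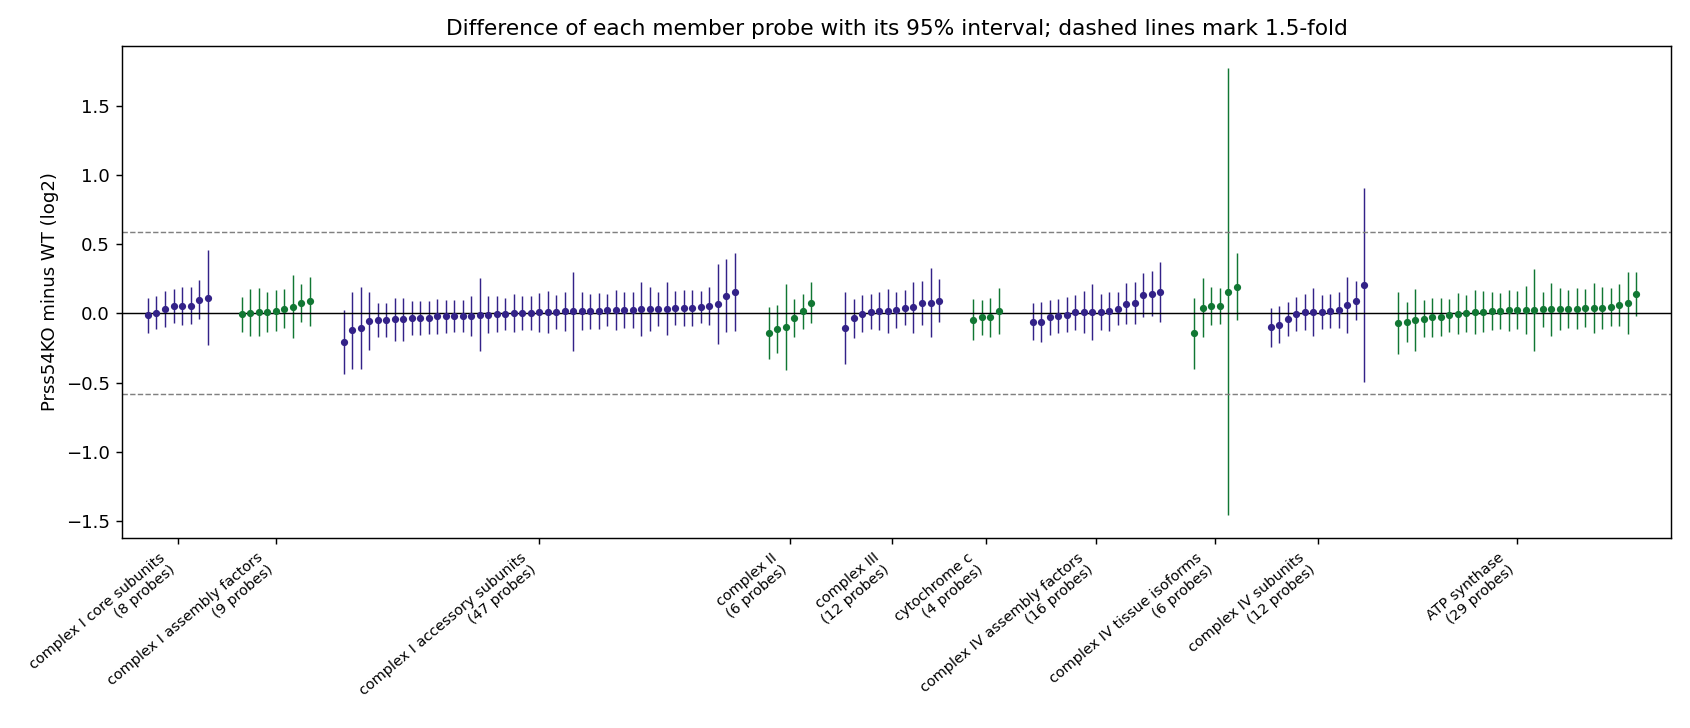
Each point is the log2 difference, Prss54KO minus WT, of 1 of the 149 tested probes, with its 95% interval from limma (3 samples per genotype), grouped by complex and sorted within it. The dashed lines mark a 1.5-fold change, and only the intervals of Cox8b (tissue isoforms of complex IV) and Cox7c (subunits of complex IV) cross them.

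Most of these probes were bright and varied little between animals. Of the 149, 111 had a mean level above the 75th percentile of all probes tested. The median standard deviation within genotypes was 0.05 on the log2 scale, against 0.10 over all probes tested. Above that percentile it was 0.05 for the 111 and 0.07 for all 7229. Among these brighter probes, 0 of the 111 had an unadjusted p under 0.05 in limma, against 0.747% of all, and 5 were beyond 0.1, against 12.4%. This split by brightness was chosen after the values were seen.

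**Figure D2:**
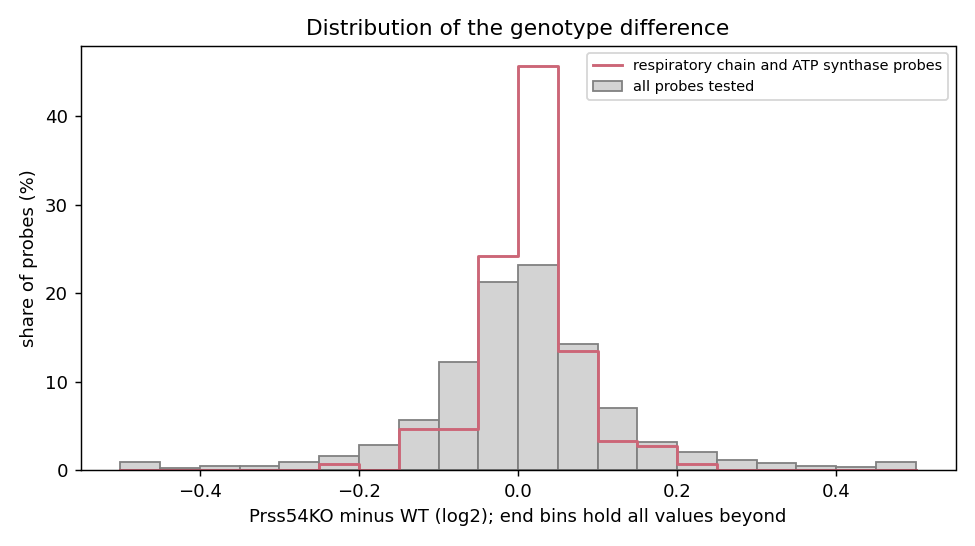
Share of probes (%) in each bin of the log2 difference, Prss54KO minus WT, for all 28913 probes tested (grey bars) and for the 149 probes of the respiratory chain and ATP synthase (red line). The red line is narrower: 18 of the 149 lie beyond 0.1 in either direction, against 29.1% of all.

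The testis isoforms are the members made for male germ cells, and their probes show which transcripts were read. The first 30 bases of each probe of 60 bases are given below, 5′ to 3′ in the sense of the transcript as the files hold them, each testis isoform before its somatic partner. No stretch is in capitals, because the probes of a pair have no identical run longer than 8 bases.
Cyct: gtatttaaaacaggccacatcctcatgaag
Cycs: aatgatcttcgctggaattaagaagaaggg
Cox6b2: ggaactttcccgggcaaaatatgaccttgc
Cox6b1: aggagtcaggatggctgaagacatcaagac
Cox7b2: gactttgcagatctctgaaaacagacctgt
Cox7b: gatcagtagtcgtgccagctggtacaataa
Cox8c: gcatcatatggacgacgaacataatctgct
Cox8a: tcatgttattcaattccagtcacctcttct

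In the mm9 positions of the files, the Cyct probe lies at chr2:76192113-76192172 (minus strand) and the Cycs probe at chr6:50515255-50515314 (minus strand). The Cox6b2 probe is at chr7:4703488-4703547 (minus strand) and the Cox7b probe at chrX:103217154-103217213 (plus strand). The Cox8c probe is at chr12:104138678-104138736 (plus strand) and the Cox8a probe at chr19:7289727-7289786 (minus strand). The Cox6b1 probe, chr7:31409575-31411071 (minus strand), and the Cox7b2 probe, chr5:71834459-71894699 (minus strand), cover far more genome than their length and so cross an intron. Which exon or untranslated region lies under the other probes was not analysed here.

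Cyct gave processed signals of 27208, 26079 and 26673 in WT and 26806, 26341 and 26823 in Prss54KO. The 6 values lay close together and the genotypes overlapped, with a difference of -0.03 (SE 0.05, unadjusted p = 0.602) and a level of 0.98-fold (95% interval 0.897 to 1.07) in Prss54KO over WT. Cyct encodes the cytochrome c of spermatocytes and later germ cells. For somatic Cycs the brightest of 3 probes gave 9401, 9367 and 10795 in WT and 9606, 10010.4 and 9911 in Prss54KO. WT replicate 3 was the highest of these 6 and the genotypes overlapped. The differences of the 3 Cycs probes were -0.03, 0.02 and -0.05, and the last 2 share 40 bases.

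Cox6b2, the testis form of a complex IV subunit on the intermembrane side, gave 80121, 76172 and 84426 in WT and 81725, 85778 and 87593 in Prss54KO. WT replicate 2 was lowest and Prss54KO replicate 3 highest, and the genotypes overlapped, with a difference of 0.06 (SE 0.05, unadjusted p = 0.338). Its somatic partner Cox6b1 gave 1549, 1493 and 1650.5 in WT and 1573, 1584 and 1661 in Prss54KO, with a difference of 0.01 (SE 0.05, unadjusted p = 0.850).

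Cox7b2 gave 19784, 18954 and 21520.4 in WT and 20555, 20822 and 22292 in Prss54KO. The genotypes overlapped, with a difference of 0.05 (SE 0.06, unadjusted p = 0.392). Its partner Cox7b, on the X chromosome, gave 4336, 4258 and 4710.1 in WT and 4662, 4406 and 4669 in Prss54KO, with a difference of 0.02 (SE 0.05, unadjusted p = 0.735) and overlapping genotypes.

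Cox8c gave 96021, 86619 and 102734 in WT and 89982, 99524 and 110449.6 in Prss54KO. It spread more widely than the other testis isoforms in both genotypes, and its difference was 0.04 (SE 0.09, unadjusted p = 0.658). Cox8a, its widespread partner, gave 17344, 17391 and 17972 in WT and 18417, 17484 and 17688 in Prss54KO, with a difference of -0.01 (SE 0.05, unadjusted p = 0.918). The 4 testis isoforms had a median difference of 0.05, with 3 above 0 and 1 below.

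**Figure D3:**
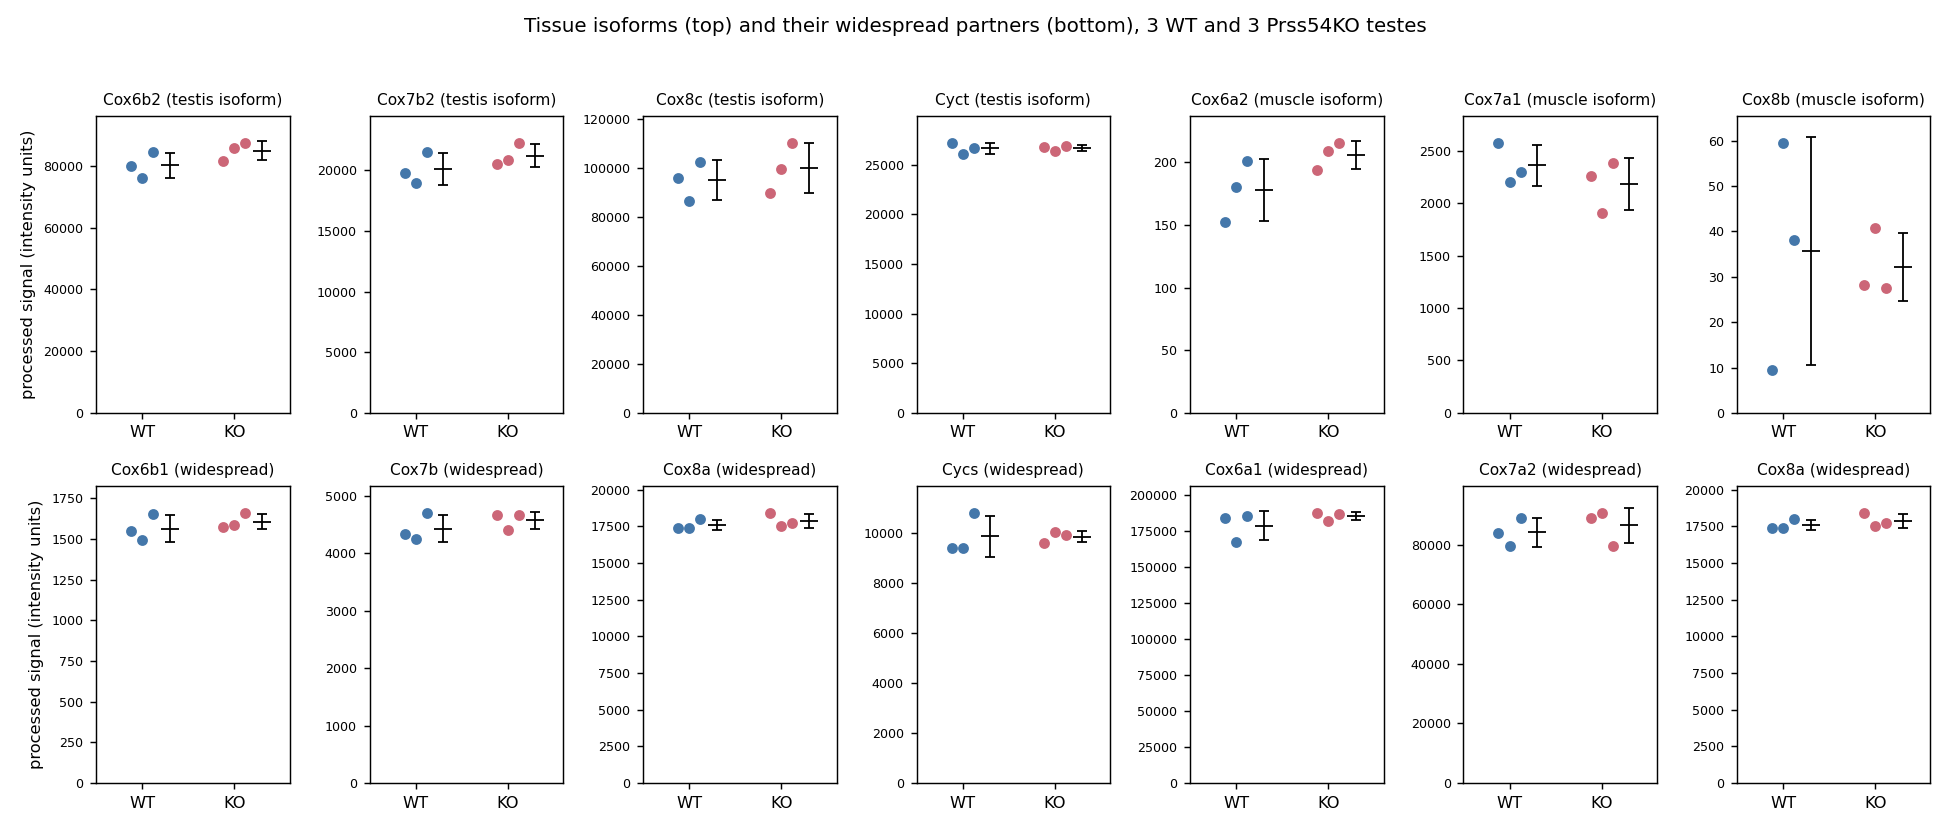
Processed signal (intensity units, before scaling between arrays) of each tissue isoform (top) and its widespread partner (bottom) in 3 WT and 3 Prss54KO testes. Points are samples, and the black mark beside them is the mean with its SD. Each panel has its own axis starting at 0, so heights are not comparable between panels, and the genotypes overlap in every panel.

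The balance between tissue and widespread isoforms was compared as a ratio within each array, as the log2 ratio relative to its WT mean. This sets no isoform's level against the other's and asks only whether the ratio moved. For Cyct over Cycs the values were 0.09, 0.04 and -0.13 in WT and 0.04, -0.04 and -0.0021 in Prss54KO. The genotypes overlapped, the change was -0.00086 on the log2 scale and the exact two-sided permutation p was 1.0.

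For Cox6b2 over Cox6b1 the values were 0.01, -0.01 and -0.0042 in WT and 0.02, 0.08 and 0.04 in Prss54KO. All 3 knockout ratios lay above all 3 WT ratios, by a mean of 0.05. An exact two-sided permutation test gave p = 0.1, which is the lower limit for 2 groups of 3, and 0.7 after adjustment over the 7 pairs. With normexp background correction the change was -0.02. Cox7b2 over Cox7b changed by 0.03 (exact permutation p = 0.5) and Cox8c over Cox8a by 0.05 (exact permutation p = 0.8), with overlapping genotypes in both.

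Complex IV also has isoforms known from heart, skeletal muscle and brown fat. Cox6a2, the muscle form of a regulatory subunit, gave 152, 180.0 and 201 in WT and 194, 209 and 216 in Prss54KO. WT replicate 1 was the lowest, the genotypes overlapped, and the difference was 0.19 (SE 0.10, unadjusted p = 0.101). Its ratio to Cox6a1, the widespread form, changed by 0.17 (exact permutation p = 0.3), by 0.04 without WT replicate 1 and by 0.01 within the slide that holds both genotypes.

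Cox7a1 gave 2579.7, 2205 and 2303 in WT and 2264, 1907 and 2387 in Prss54KO. Prss54KO replicate 2 was lowest and WT replicate 1 highest, and the difference was -0.14 (SE 0.11, unadjusted p = 0.218). Its ratio to Cox7a2, the widespread form, changed by -0.15 (exact permutation p = 0.4). The ratio used the brighter of 2 Cox7a2 probes, which had a difference of 0.01, while the other was at -0.10, nearer to that of Cox7a1. The change of the ratio was -0.02 without Prss54KO replicate 2, -0.09 without WT replicate 1 and -0.28 without Prss54KO replicate 3.

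Cox8b was near background. Its signals were 9.46, 59.6 and 38.1 in WT and 28.1, 40.8 and 27.5 in Prss54KO, and it was well above background on 2 WT arrays and 1 Prss54KO array. Its level in Prss54KO over WT was 1.11-fold (95% interval 0.364 to 3.41), an interval that spans both directions, and its ratio to Cox8a changed by 0.16 (exact permutation p = 0.9). Cox4i2, the lung form of subunit IV, was well above background on 1 WT array and on no Prss54KO array and was not tested. Over the 10 of 19 striated muscle marker probes that passed the filter, the median deviation from the WT mean was 0.02, -0.04 and 0.05 in WT and -0.09, 0.02 and 0.005 in Prss54KO. Ckm, the muscle creatine kinase, was well above background on 1 WT array and on no Prss54KO array, and Ucp1, which defines brown fat, on none. Cidea, another brown fat gene, gave 6592, 5794 and 6947 in WT and 6518, 5853 and 5503 in Prss54KO. The part of such cells in the muscle isoforms was not tested.

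Complex I begins with 7 core subunits encoded in the nucleus, which carry the flavin and iron-sulphur clusters and the quinone site. Their 8 probes had a median difference of 0.05, with 7 above 0. Ndufv1, which binds NADH and the flavin, gave 37794, 34447 and 38619.8 in WT and 38603, 38747 and 38088 in Prss54KO. Its WT replicate 2 was lowest, and the difference was 0.03 (SE 0.05, unadjusted p = 0.586).

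Ndufs1, the largest iron-sulphur subunit, gave 35099, 31775 and 37221 in WT and 36037, 36983 and 36940.1 in Prss54KO. Again WT replicate 2 was lowest, the genotypes overlapped and the difference was 0.05 (SE 0.06, unadjusted p = 0.394). Ndufs3, a core subunit of the arm that leads to the quinone site, gave 32966, 30259 and 35060.3 in WT and 35221, 36748 and 35213 in Prss54KO. After scaling, its 3 knockout levels lay above its 3 WT levels, with a difference of 0.10 (SE 0.06, unadjusted p = 0.140). Ndufs7 and Ndufs8, which carry iron-sulphur clusters, had differences of 0.05 and -0.01.

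The 30 genes grouped by name alone as accessory subunits of complex I had 51 probes, 47 of them tested. Their median difference was 0.01, with 27 above 0 and 20 below. Ndufb8, a subunit of the membrane arm that is widely used as a marker of assembled complex I, had the widest gap between probes of a gene, 0.25 on the log2 scale. Its bright probe gave 75450.0, 73887 and 81855 in WT and 81832, 81326 and 80145 in Prss54KO, with a difference of 0.05 (SE 0.05, unadjusted p = 0.383). Its dim probe gave 61.4, 54.7 and 67.1 in WT and 52.4, 48.9 and 61 in Prss54KO, with a difference of -0.21 (SE 0.10, unadjusted p = 0.074). The probes moved in opposite directions, so the gene has no settled direction.

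Ndufa12, an accessory subunit of the matrix arm, had 3 probes. The dimmest gave 5098, 4658 and 6495 in WT and 5642, 5991 and 6674 in Prss54KO and the next 24749.9, 19689 and 27901 in WT and 26222, 26344 and 27240.3 in Prss54KO, with WT replicate 2 lowest in both and differences of 0.15 and 0.13. These 2 probes share 40 bases, so they are not separate readings. The brightest gave 97851, 96729 and 101593 in WT and 103501, 101682 and 101488 in Prss54KO, with a difference of 0.02. Over the 9 tested probes of 7 complex I assembly factors, named Ndufaf, the median was 0.02 and 8 were above 0. The highest was Ndufaf5 at 0.09.

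Complex II, which also serves the citric acid cycle, had the lowest median of the complexes, -0.07 over 6 probes, with 4 below 0. Within the slide that holds both genotypes it was 0.02, and without Prss54KO replicate 3 it was also 0.02. That median rested on Sdha, the flavin-binding subunit that oxidises succinate, with 3 of the 6 probes. The first Sdha probe gave 1799.9, 1790.2 and 1681 in WT and 1724, 1595 and 1659 in Prss54KO, with a difference of -0.11 (SE 0.07, unadjusted p = 0.170). The genotypes overlapped.

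The second Sdha probe gave 3567, 3353 and 3648 in WT and 3799.8, 3598 and 2765 in Prss54KO, where Prss54KO replicate 3 was the lowest of 6, and its difference was -0.10 (SE 0.13, unadjusted p = 0.470). The third, a dim probe, gave 227, 231 and 228 in WT and 193, 218 and 224 in Prss54KO, with all knockout samples below all WT samples and a difference of -0.14 (SE 0.08, unadjusted p = 0.110). Without Prss54KO replicate 3 the second probe's difference was 0.05.

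Sdhb, the iron-sulphur subunit, gave 12838, 12545 and 13864 in WT and 13775, 13600.1 and 13027 in Prss54KO, with overlapping genotypes and a difference of 0.01 (SE 0.05, unadjusted p = 0.807). The membrane anchors Sdhc and Sdhd had differences of -0.03 and 0.08. The 4 genes of this complex had differences of both signs.

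Complex III had a median difference of 0.02 over 12 probes, 9 of them above 0. Cyc1, which holds the c-type haem, gave 14375, 14007 and 15829 in WT and 14825, 15450.0 and 14727 in Prss54KO, with overlapping genotypes and a difference of -0.002 (SE 0.05, unadjusted p = 0.972). Uqcrfs1, the Rieske iron-sulphur protein, gave 19841, 19959 and 20826 in WT and 20757, 20897 and 22048 in Prss54KO, with overlapping genotypes and a difference of 0.04 (SE 0.05, unadjusted p = 0.440). The core proteins Uqcrc1 and Uqcrc2 had differences of 0.07 at the brighter Uqcrc1 probe and -0.03 at Uqcrc2. Uqcrh, the hinge protein next to Cyc1, had 2 probes, with differences of 0.09, where the genotypes did not overlap after scaling, and 0.02, where they did.

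The widespread nuclear subunits of complex IV had a median difference of 0.01 over 12 probes, 8 of them above 0. Cox4i1, the subunit through which ATP is known to inhibit the enzyme, gave 121161, 125784 and 125429 in WT and 126409, 128668 and 126978 in Prss54KO, with overlapping genotypes and a difference of 0.01 (SE 0.05, unadjusted p = 0.889). Cox6a1 gave 183743, 167153 and 185545 in WT and 187676, 182086 and 186469.7 in Prss54KO, with WT replicate 2 lowest and a difference of 0.02 (SE 0.05, unadjusted p = 0.662). Cox7a2 had probes at 0.01, with overlapping genotypes, and -0.10, with all scaled knockout levels below those of WT. These 2 probes share 48 of their 60 bases, so the non-overlap was not seen in a nearly identical probe. Cox7a2l, which joins complexes III and IV into supercomplexes, gave 9545, 9892 and 10684 in WT and 9847, 9769 and 9388 in Prss54KO. After scaling, all knockout levels were below those of WT, with a difference of -0.08 (SE 0.06, unadjusted p = 0.185).

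Cox7c, a small subunit of the complex IV membrane part, varied most between animals among the widespread subunits. It gave 1589, 1403 and 2706 in WT and 1822, 1789 and 2999 in Prss54KO. The third replicate of each genotype stood above the other 4 samples, and the level in Prss54KO over WT was 1.15-fold (95% interval 0.709 to 1.87). The standard deviation within genotypes was 0.43 on the log2 scale, second only to Cox8b among the 149 tested probes, of which 123 were under 0.1. The third replicates of the 2 genotypes were on different slides. On the slide that holds both genotypes, the scaled level was 0.66 in WT replicate 3 and 0.13 and 0.11 in Prss54KO replicates 1 and 2. There Prss54KO was lower, so the direction was reversed.

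Complex IV assembly factors include some that build the haem and copper sites. Their 16 tested probes had a median difference of 0.01, with 11 above 0. Cox11, which delivers copper to the Cox1 core, had the smallest unadjusted p of all 149 probes. It gave 9088, 7991 and 9231 in WT and 9529, 9669 and 10399 in Prss54KO, and all knockout samples were above all WT samples. The difference was 0.14 (SE 0.07, unadjusted p = 0.072), with an adjusted p of 0.9998 in limma.

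Cox10, which makes the haem A precursor, gave 116, 114 and 145 in WT and 140.1, 133 and 151 in Prss54KO. WT replicate 3 lay among the knockout samples, and the difference was 0.15 (SE 0.09, unadjusted p = 0.135). Within the slide that holds both genotypes it was -0.05. Cox15, which acts in the next step of haem A synthesis, had a difference of -0.06. Cox17, the copper chaperone, had 2 probes with differences of 0.13 and 0.01. The probe with the higher value has no genome position in the files, while the other crosses an intron of Cox17 on chromosome 16. Only the unplaced probe, with 43510.4, 39655 and 42114 in WT and 49024, 46675 and 44454 in Prss54KO, had its knockout signals all above those of WT, although the scaled levels overlapped. Among the genes described, Cox7a2l, Cox7c, Cox10, Cox11, Cox17, Ndufs3 and other subunits beyond those of the naming rule were chosen after their values were seen.

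ATP synthase genes had 29 probes for 18 genes, with a median difference of 0.02, 20 above 0 and 9 below. The median was 0.0056 without Prss54KO replicate 2, 0.01 without Prss54KO replicate 1 and 0.01 without WT replicate 2. Atp5a1, the alpha subunit of the catalytic head, gave 29374, 28855 and 34037 in WT and 32006, 31073 and 30722 in Prss54KO at the brighter probe. The genotypes overlapped, with a difference of -0.0017 (SE 0.06, unadjusted p = 0.978), and the other Atp5a1 probe was at 0.03. Atp5b, the catalytic beta subunit, had 4 probes at -0.06, -0.03, 0.04 and 0.07, the brightest of which gave 83786, 85736 and 93937 in WT and 92468, 96048 and 87782 in Prss54KO. In each the genotypes overlapped.

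Atp5c1, the gamma subunit of the rotor, and its pseudogene Atp5c1-ps had differences of 0.02 and 0.05. A probe can bind the transcript of so close a copy, so these values may not be separate. The c-ring genes Atp5g1 and Atp5g3 were at 0.01 and -0.00058, and the 2 probes of Atp5g2 at 0.03 and 0.02. The largest difference in this group belonged to Atp5sl, which RefSeq now names Dmac2 and which is known as a complex I assembly factor, not a synthase subunit. It gave 2219.6, 2328 and 2333 in WT and 2629, 2389.7 and 2722 in Prss54KO. WT was lower in all 3 animals before scaling than the lowest knockout sample, the scaled levels overlapped, and the difference was 0.14 (SE 0.07, unadjusted p = 0.080). A second Atp5sl probe was at 0.03.

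Across arrays, the medians of the complexes stayed close to the WT mean, while the 3 muscle isoforms tested had -0.20, 0.07 and 0.13 in WT and -0.01, 0.23 and -0.02 in Prss54KO. Over all 149 probes the median deviation was 0.02, -0.02 and 0.01 in WT and 0.02, 0.01 and 0.0015 in Prss54KO. For the testis isoforms it was 0.03, -0.03 and 0.03 in WT and -0.01, 0.04 and 0.10 in Prss54KO, and Prss54KO replicate 3 was highest. The 22 spermatid marker probes, such as Prm1, Tnp1 and Akap4, had median deviations of -0.04, -0.04 and 0.05 in WT and 0.05, 0.07 and -0.14 in Prss54KO, with Prss54KO replicate 3 the lowest. The median of the 20 spermatocyte marker probes stayed between -0.02 and 0.02 on every array.

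Marker lists of other cell types varied to different degrees. The macrophage list had median deviations of 0.03, -0.12 and 0.11 in WT and 0.12, -0.38 and 0.01 in Prss54KO. The Leydig cell list had 0.10, -0.18 and 0.09 in WT and -0.08, -0.08 and -0.01 in Prss54KO. The endothelium list had -0.04, 0.04 and 0.03 in WT and 0.07, -0.13 and -0.11 in Prss54KO. The medians of the Sertoli cell list stayed between -0.02 and 0.04, those of the spermatogonia list between -0.06 and 0.03 and those of the smooth muscle and peritubular list between -0.09 and 0.05. The adipocyte markers had median deviations of -0.12, -0.25 and 0.38 in WT and -0.28, -0.11 and -0.14 in Prss54KO, and WT replicate 3 stood out. The red blood cell markers had 0.77, -0.78 and 0.06 in WT and -0.50, -0.25 and -0.60 in Prss54KO, with WT replicates 1 and 2 at opposite ends. Ucp1, which defines brown fat, was well above background on no array and is not among the 3 tested probes of the brown fat list. These probes had 0.05, -0.11 and 0.05 in WT and -0.05, -0.15 and -0.26 in Prss54KO, with overlapping genotypes. All 3 had a difference below 0, and 1, for Ppara, a fatty acid oxidation regulator that is also made outside brown fat, had an unadjusted p of 0.011 in limma. Over all probes tested, 3.21% had an unadjusted p under 0.05. The spermatogonia, striated muscle, endothelium and epididymis lists also had 1 such probe each. The 4 tested of 11 epididymis probes had -0.07, 0.06 and -0.01 in WT and 0.20, 0.09 and 0.20 in Prss54KO, with all knockout values above those of WT. The part of any of these cells in the members' values was not tested.

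**Figure D4:**
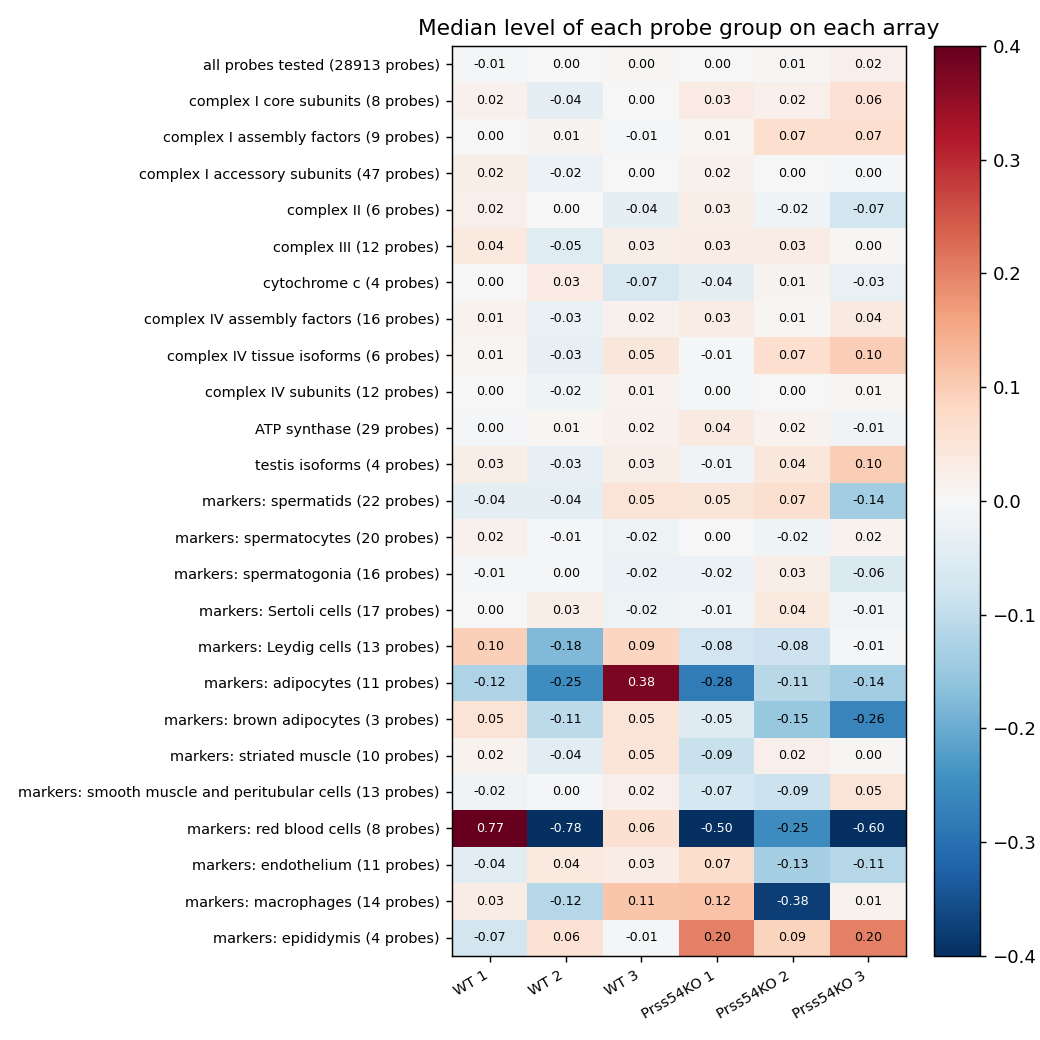
Median log2 deviation from the WT mean on each of the 6 arrays (columns), for each group of members and each marker list (lines), with the value printed in each cell and colours ending at 0.4. The groups of respiratory chain genes drawn here, by complex and for the testis isoforms, stay between -0.08 and 0.10, while the red blood cell markers run from -0.78 to 0.77.

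Genes that work beside the chain were described by lists. From each list the 2 genes with the smallest unadjusted p in limma were named, so they are extremes picked from these values. The Pdha and Slc25a isoforms were named in addition. Among 65 tested probes of other assembly factors, 1 was higher and 1 lower at an unadjusted p under 0.05 in limma, with 0 at an adjusted p under 0.05. Over all probes tested, 1.76% were higher and 1.46% lower at that level, so this count is near the background. The 2 were Lrpprc, a stabiliser of mitochondrial mRNA, at 0.19 (SE 0.06, unadjusted p = 0.025) on a dim probe and -0.01 on its bright probe, and Acn9, a complex II assembly factor, at -0.14 (SE 0.05, unadjusted p = 0.028). The other Acn9 probes were at -0.53 (SE 0.79, unadjusted p = 0.527), dim and well above background on 2 arrays of each genotype, and 0.02.

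Among 39 probes of pyruvate dehydrogenase and the citric acid cycle, which supply the electrons, 1 had an unadjusted p under 0.05, a count no higher than the 3.21% of all probes would give. It was Pdk4, a kinase that switches pyruvate dehydrogenase off, with 193, 150.1 and 123 in WT and 225, 239.8 and 253 in Prss54KO. All knockout samples were above all WT samples, and the difference was 0.62 (SE 0.18, unadjusted p = 0.014), with an adjusted p of 0.9998 in limma. Sucla2, a subunit of the ADP-forming succinate-CoA ligase, was at 0.10 on its brightest probe. Pdha2, the testis form of the dehydrogenase, gave 16549, 15820.0 and 17659 in WT and 16964, 16248 and 16873 in Prss54KO, with a difference of -0.03. Its somatic form Pdha1 had probes at -0.07 and -0.13.

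The carriers that move ADP, ATP and phosphate had 0 of 9 probes at an unadjusted p under 0.05 in limma, and 0 at an adjusted p under 0.05. Slc25a31, the germ cell form of the adenine nucleotide translocator, gave 3067, 3146 and 2829 in WT and 2802, 2999 and 2945 in Prss54KO, with overlapping genotypes and a difference of -0.08 (SE 0.08, unadjusted p = 0.386). The somatic forms Slc25a4 and Slc25a5 had differences of -0.05 at the brighter Slc25a4 probe and 0.02. Vdac3, a channel of the outer membrane, was at 0.09.

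The ubiquinone and electron entry list had 0 of 25 probes at an unadjusted p under 0.05 in limma, with Coq5, a methyltransferase of ubiquinone synthesis, at -0.12 and 0.04. Etfdh, which brings electrons from fat oxidation, was at 0.11 and -0.05. The mitochondrial regulators had 0 of 35. Tfam, which packages and transcribes mitochondrial DNA, was at -0.56 (SE 0.36, unadjusted p = 0.172) on a dim probe that was well above background on 3 WT and 2 Prss54KO arrays, and at -0.12 and 0.02 on brighter ones. Gabpa, the DNA-binding part of an ETS factor that drives respiratory genes, was at 0.09 on its brightest probe.

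Of the members, 3 lie on chromosome 8, as Prss54 does. Ndufb7 is 11.99 Mb from the Prss54 probe, Cox4i1 25.1 Mb and Ndufa13 25.7 Mb, in mm9. Their differences were -0.02, 0.01 and -0.01, with overlapping genotypes in each.

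Promoter sequence is a feature that the naming did not use, and it was read from RefSeq. RefSeq sequence in GRCm38.p6, from 250 bases before to 50 after the gene start, was matched for 85 members and compared with 27025 genes. Motifs were searched on both strands. GCGCATGC, the core of the motif of NRF1, a factor known to drive respiratory genes, was present in 13 of 85 members, or 15.3%, against 3.05% of all promoters. Cycs, Sdhb, Cox6a1, Uqcrc1 and Atp5g2 were among the 13. The ETS motif CCGGAAG was present in 22, or 25.9%, against 9.93%, and the cyclic AMP response element TGACGTCA in 5, or 5.88%, against 2.03%.

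The TATA motif TATAAA was present in 8 of 85, or 9.41%, against 15.7% of all promoters. Shares of the GC box GGGCGG, 47.1%, and of CCAAT, 44.7%, stood beside 38.2% and 41.1% of all promoters. Members had a median of 20 CpG dinucleotides in the window, against 8 over all promoters. The 3 testis isoforms with an entry had 8 to 10, and none of them held the NRF1, ETS or cyclic AMP motif. A match is a stretch of letters and no measured binding. The NRF1, ETS, cyclic AMP and GC box motifs each contain CG, and their shares were not adjusted for the CpG content of the windows.

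The cytochrome c pair is shown as an example of a widespread gene and a testis isoform. The 250 bases before the gene start are given for Cycs, chr6:50566570-50566819, and for Cyct, chr2:76360454-76360703, in GRCm38.p6 on the minus strand, with the cyclic AMP response element TGACGTCA and the NRF1 core, which lies on the opposite strand, of Cycs in capitals.
Cycs promoter: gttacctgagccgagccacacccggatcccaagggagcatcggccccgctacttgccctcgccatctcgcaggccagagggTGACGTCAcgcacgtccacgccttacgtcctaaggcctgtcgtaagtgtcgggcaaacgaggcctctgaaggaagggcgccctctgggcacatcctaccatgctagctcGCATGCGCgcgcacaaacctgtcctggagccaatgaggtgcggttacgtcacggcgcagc
Cyct promoter: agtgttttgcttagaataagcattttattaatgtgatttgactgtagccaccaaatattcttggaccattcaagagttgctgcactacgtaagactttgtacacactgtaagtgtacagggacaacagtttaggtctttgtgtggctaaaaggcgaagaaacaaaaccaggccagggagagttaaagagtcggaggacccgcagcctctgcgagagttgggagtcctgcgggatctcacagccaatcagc
The window of Cycs, its 50 bases after the start included, held 32 CpG dinucleotides and that of Cyct 8. Both held CCAAT. The genotypes overlapped for both transcripts, as given above.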

How the data were processed

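The deposited scanner files hold spot intensity on a linear scale, written by Agilent Feature Extraction 10.7.3.1 per the file headers (10.7 per the submitters' processing notes). Spot flags are those of the deposited files. The deposited table of the series holds log2 values with identical quantiles in all 6 columns and was used as an alternative only; its software is not stated in the labels or files used. Members and lists were chosen with earlier results of these data known. Levels are log2 processed signals minus the array's 75th percentile, with spots of a probe averaged. All probes well above background on at least 3 arrays entered 1 fit (limma 3.58.1, R 4.3.3, two-sided, Benjamini-Hochberg over 28913 probes). The fit was first tested on simulated data, with planted changes far larger than any member difference, so smaller changes were not covered by that test. Named genes were the isoform pairs, a set of central subunits, chromosome 8 members, Prss54, and the Pdha and Slc25a isoforms. The rule also took members at an unadjusted p under 0.05 (none) and probes of a gene over 0.3 apart (none). From each companion list it took the 2 genes with the smallest unadjusted p in these data. Ratio changes used exact permutation tests. Array names were matched to RefSeq (GRCm38.p6) for all 104 genes, 103 by accession. Alternatives covered scaling, background, filter, probe choice, slide, replicate number, variance model and left-out samples.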

Additional observations from a re-analysis of the deposited data

How the results depend on the processing

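Over 20 alternatives, limma called 0 of the respiratory chain and ATP synthase probes at an adjusted p under 0.05. Among all probes, normexp background correction called 1, the slide as a fixed block 1, and an intensity trend with robust variance 2. At an unadjusted p under 0.05, the count of member probes higher in Prss54KO went from 0 to 1 with the intensity trend and ranged from 0 to 2 with samples left out. The count of lower ones went from 0 to 1 with quantile scaling, the authors' table or array weights. It was 2, Cox7c and Ndufb8, with the slide as a fixed block, and ranged from 0 to 1 with samples left out. In each of these settings the share of members at that level, at most 2.01%, was below that of all probes, which was 4.86% with array weights, 4.38% with the slide as a fixed block and 6.21% without WT replicate 3. With the slide as a fixed block the comparison rests on the slide that holds both genotypes. That slide has 1 WT sample, which is assumed to vary like the others. With the replicate block, 2 member probes were higher and 1 lower at that level; same-numbered samples correlated at -0.04, 0.02 and -0.15 in their deviations, so the numbers do not pair them. The cause of these changes was not tested. The median member difference ran from -0.0038 to 0.02, that of complex II from -0.08 to 0.02, that of cytochrome c from -0.05 to 0.04, that of the complex IV tissue isoforms from -0.05 to 0.10 and that of the complex I core from 0.0091 to 0.06. Of 41 named member probes, 12 kept their sign throughout and 0 were called. With 3 samples per genotype, the intervals of the member probes had a median half-width of 0.14, without adjustment for the number of probes tested. Changes smaller than that were mostly not detectable. The limit for a call at an adjusted p under 0.05 was higher, and in the main fit even Prss54, at -1.56, was not called. The 0 calls among members therefore do not by themselves exclude changes larger than 0.14. The 95% intervals, not adjusted for the number of probes, lay within a 1.5-fold change for 147 of the 149 member probes.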

Other observations

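The array also has 3 probes named for mitochondrially encoded subunits, which the naming by nuclear gene symbols did not take and which were chosen after the values were seen. CYTB, the cytochrome b of complex III, gave 153571, 140661 and 159989 in WT and 160001, 163355 and 164137 in Prss54KO. WT replicate 2 was lowest, and the difference was 0.07 (SE 0.05, unadjusted p = 0.209). COX2, a catalytic core subunit of complex IV, gave 238629.7, 216052 and 236313 in WT and 226851, 230542 and 229715 in Prss54KO, with a difference of -0.04 (SE 0.06, unadjusted p = 0.536). ND4, a proton-pumping subunit of complex I, gave 84197, 82869 and 88971 in WT and 86163, 85172 and 85339.8 in Prss54KO, with a difference of -0.03 (SE 0.05, unadjusted p = 0.608). In limma all 3 had an adjusted p of 0.9998.

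Of the 103 member genes tested, 32 had several probes. The median gap between the highest and lowest difference of a gene's probes was 0.07 on the log2 scale, it was under 0.1 for 21 of the 32 genes, and for none was it over 0.3.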
